A study of Mus musculus with 7 samples.

Results

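The levels of 8 genes of the 2-cell-like (2C-like) state, Zscan4c, Zscan4d, Zscan4f, Tcstv1, Tcstv3, Zfp352, Dppa2 and Dppa4, were taken by symbol from an expression table of 22556 genes, which held all 8. The table describes C7H8 iXist-ChrX_Cast mouse embryonic stem (mES) cells, 1 female clone of Mus castaneus × 129S background in which a doxycycline (Dox)-responsive TetOn promoter drives Xist from the castaneus X chromosome. All cells were grown with LIF and serum on fibroblast feeders and all received Dox at 1 µg/mL for 24 h. From 6 h before Dox they were kept either in DMSO, with 3 libraries, or in STM2457, an inhibitor of the m6A writer METTL3. The inhibitor was used at 10 µM in 2 libraries and at 20 and 30 µM in 1 library each. RNA bound to chromatin was sequenced (ChrRNA-seq), which enriches nascent transcripts, and is given in RPM, the unit of read pairs scaled to the total on genes.

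A small share of the cells in an mES culture passes for a time through the 2C-like state, in which genes of the mouse embryo's first major wave of transcription are switched on. The Zscan4 genes encode SCAN and zinc finger proteins that act at telomeres, Zfp352 encodes another zinc finger protein of the early embryo, and Tcstv1 and Tcstv3 are named for their variable expression at the 2-cell stage. Dppa2 and Dppa4 stand upstream: they encode a pair of DNA-binding proteins made by mES cells in general, which bind each other and help to activate Dux, the factor that turns on the others.

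The 8 genes separated into those read well and those barely read. Dppa4 and Dppa2 were read from 11067 and 3794 read pairs over the 7 libraries. The other 6 together gave no more than 38 in any library, and none of them reached the mean of 1 RPM that was required for testing, which 39.7% of the genes in the table also missed. No member was called changed in either comparison, and limma called no other gene either (0 of 13634 at 10 µM and 0 of 13599 with dose).

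The Zscan4 genes are near-copies of each other on chromosome 7, where the 6 genes of the family lie within 608 kb, and the authors kept only read pairs that aligned to a single place. The sequence itself shows what that removes. The first 81 coding bases, which are as long as 1 read of a pair, are printed for the 3 members from the GENCODE vM21 transcripts (GRCm38, the mm10 build), at chr7:11006556-11006636 on the plus strand for Zscan4c, chr7:11165268-11165348 on the minus strand for Zscan4d and chr7:11398749-11398829 on the plus strand for Zscan4f. Capitals mark bases that differ from Zscan4c.
Zscan4c: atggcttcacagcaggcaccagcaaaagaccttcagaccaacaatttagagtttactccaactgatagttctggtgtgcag
Zscan4d: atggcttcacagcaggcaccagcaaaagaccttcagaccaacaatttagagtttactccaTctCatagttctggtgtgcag
Zscan4f: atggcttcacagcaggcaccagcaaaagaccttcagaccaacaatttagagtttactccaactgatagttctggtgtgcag

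Zscan4c and Zscan4f differed at 0 of these 81 bases and Zscan4d at 2, so a read from this stretch could not be given to Zscan4c or Zscan4f unless its mate fell elsewhere. Over the whole spliced transcript, 91.7% of the 81-base words of Zscan4f, 77.0% of those of Zscan4c and 37.1% of those of Zscan4d also occur in a transcript of another gene. Of the words of Zscan4c, 59.2% were found in Zscan4f, and 74.3% the other way round. The other members shared less: 25.3% for Dppa2, 21.2% for Dppa4, 12.7% for Tcstv3, 6.58% for Tcstv1 and 2.28% for Zfp352. The shared words of Dppa2 and Dppa4 lay mainly in the genes Gm9788 and Gm14058. Read pairs that lie wholly in stretches shared between copies would have been left out. The counts of Zscan4c, Zscan4d and Zscan4f can therefore be too low, and by different amounts. The counts also take in introns, and exons make up 47.4% of the Zscan4c span and 14.1% of the Dppa4 span.

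The same likeness reaches upstream of the transcripts, outside the spans that were counted. Whether the 3 genes are regulated alike was not tested. In the RefSeq promoter table (GRCm38.p6, 250 bases before to 50 after each start), 4 members had an entry, the 3 Zscan4 genes and Zfp352. A stretch of 95 bases around the letters TATAAAA, shown in capitals, lies at chr7:11005621-11005715 on the plus strand for Zscan4c, chr7:11166189-11166283 on the minus strand for Zscan4d and chr7:11397814-11397908 on the plus strand for Zscan4f.
Zscan4c: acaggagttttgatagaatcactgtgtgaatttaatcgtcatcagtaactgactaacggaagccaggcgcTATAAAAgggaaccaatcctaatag
Zscan4d: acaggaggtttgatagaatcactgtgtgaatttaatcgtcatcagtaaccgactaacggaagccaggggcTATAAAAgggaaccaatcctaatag
Zscan4f: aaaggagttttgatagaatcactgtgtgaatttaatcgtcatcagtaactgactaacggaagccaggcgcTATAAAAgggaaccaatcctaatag

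Against Zscan4c, the Zscan4d stretch differed at 3 of 95 bases and the Zscan4f stretch at 1. The 7 letters, searched on both strands, were found in 1801 of 32851 promoters of 300 bases (5.48%), and not in the Zfp352 promoter. The promoters of Zscan4c, Zscan4d, Zscan4f and Zfp352 held 4, 3, 3 and 2 CG dinucleotides, against a median of 7 over all promoters. Low counts are common, as 43.6% of all promoters held at most 5.

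Sequencing depth limits what the low members can show. The 20 µM library was the shallowest, with 9300549 read pairs on genes, and DMSO replicate 2 the deepest, with 28030180, around a median of 23367051. A single read pair therefore stood for 0.108 RPM in the first and 0.0357 RPM in the second. The genes Lars2, Cmss1, Gphn, Cdk8 and Camk1d took 8.92% of the read pairs at 20 µM, 1.16% in DMSO replicate 3, 0.700% at 30 µM and 0.212% to 0.237% in the others. Principal component 1 of 13067 genes, computed without any gene listed for this work, held 78.8% of the variance and split the libraries. Set 1 held the 10 µM libraries with DMSO replicates 1 and 2, and set 2 held the 20 and 30 µM libraries with DMSO replicate 3. The sets are defined by these values and not by the labels. Both doses above 10 µM thus share a set with a single DMSO library, and each has 1 library. The mES markers Esrrb, Zfp42 and Nanog were at no less than 545, 528 and 71.4 RPM in any library, and Sox2 was listed at 0 in all 7. Sox2ot overlaps Sox2 on the same strand, and whether this bears on the 0 was not tested. Of 12 fibroblast markers, 3 passed the filter (Fn1, Col5a1 and Thy1), while Col1a2 was at 0.191 to 0.942 RPM, Col1a1 at 0.107 to 0.860 RPM and Lum had 1 read pair in all. The fibroblast list summed to 625 to 1181 RPM in DMSO, 915 to 1038 RPM at 10 µM, 443 RPM at 20 µM and 486 RPM at 30 µM, nearly all of it Fn1. Without Fn1 and Col5a1 it summed to 2.25 to 4.73 RPM.

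**Figure D1:**
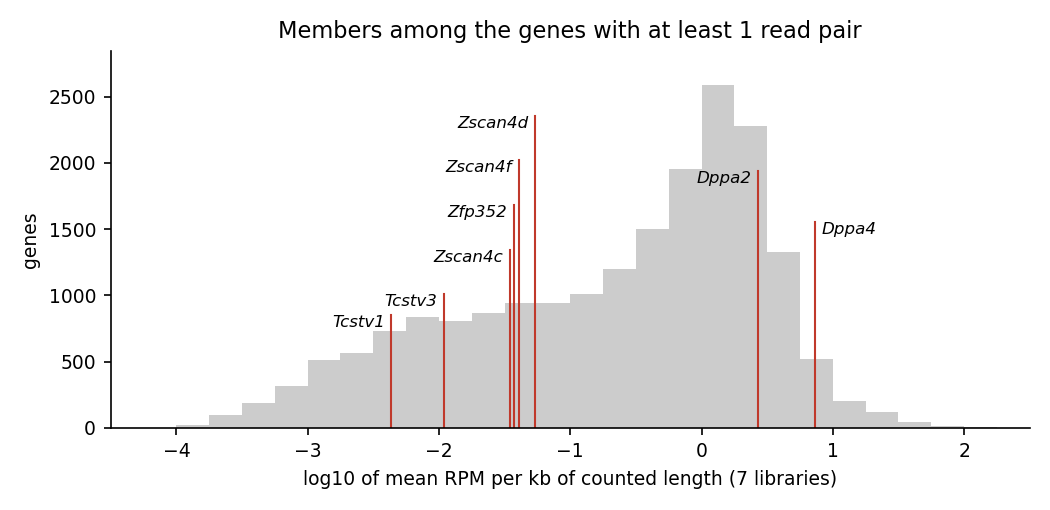
Histogram of the mean level of each gene over 7 libraries, as log10 of RPM per kb of counted length, for the 19594 genes with at least 1 read pair, with a red line at each of the 8 members. Dppa4 (7.27 RPM per kb) and Dppa2 (2.70 RPM per kb) lie toward the upper end, and the other 6 (0.00435 to 0.0542 RPM per kb) lie in the lower part.

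Per kb of counted length, Dppa4 had the highest mean level of the 8 at 7.27 RPM per kb, and 604 of 22556 genes were higher. Dppa2 followed at 2.70 RPM per kb, with 2755 genes higher. Between them and the rest lay a wide gap. Zscan4d was at 0.0542, Zscan4f at 0.0405, Zfp352 at 0.0372 and Zscan4c at 0.0348 RPM per kb, and the counting intervals of these 4, per kb, overlapped in each of the 7 libraries, so their order is not resolved. Tcstv3 and Tcstv1 came last, at 0.0109 and 0.00435 RPM per kb, with at most 3 read pairs in a library. In a bulk sample such as these, fewer cells in the 2C-like state and less RNA in each such cell cannot be told apart.

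Dppa4 lies at chr16:48283735-48294292 on the plus strand, and Dppa2 lies 15981 bp downstream at chr16:48310274-48319513 on the same strand. No other gene in the table overlaps either. Dppa4 was measured at 73.8, 58.2 and 97.1 RPM in DMSO replicates 1, 2 and 3 (76.4 ± 19.6, SD, n = 3), and at 66.9 and 51.5 RPM in the 10 µM libraries (59.2 ± 10.9, SD, n = 2). It was at 109 RPM in the 20 µM library and at 80.6 RPM in the 30 µM library. The DMSO and 10 µM groups overlapped, and the 20 µM library stood above all 3 DMSO libraries. The 3 libraries of set 2 (80.6 to 109 RPM) were all above the 4 of set 1 (51.5 to 73.8 RPM), whatever the treatment. The sets follow the main difference between these libraries over 13067 genes. The share of all genes that divide this way was not counted, so the division is not particular to Dppa4. DMSO replicate 3 alone was 1.67 times DMSO replicate 2, with a counting interval of 1.56 to 1.78.

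Dppa2 was measured at 30.3, 21.9 and 32.8 RPM in DMSO replicates 1, 2 and 3 (28.3 ± 5.70, SD, n = 3), and at 21.2 and 23.5 RPM in the 10 µM libraries (22.4 ± 1.63, SD, n = 2). It was at 21.6 RPM in the 20 µM library and at 23.6 RPM in the 30 µM library. The 4 inhibitor libraries lay close together, below DMSO replicates 1 and 3, but DMSO replicate 2 fell among them. Unlike Dppa4, it did not divide by set.

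**Figure D2:**
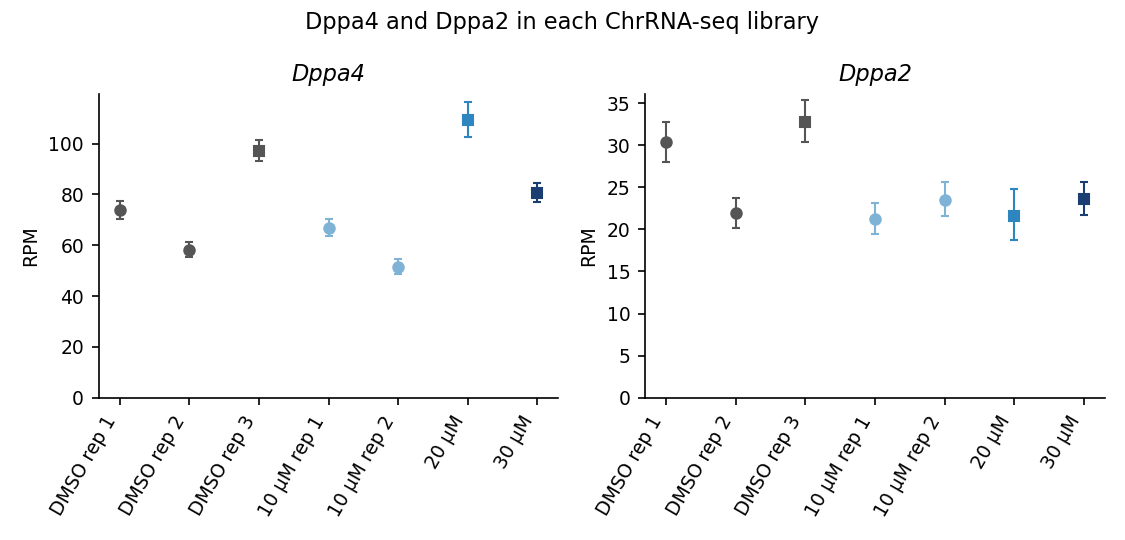
Dppa4 (left) and Dppa2 (right) in RPM for each of the 7 libraries, with 95% Poisson intervals as bars that cover counting error only; grey points are DMSO, blues darken from 10 to 30 µM STM2457, circles are set 1 and squares set 2. Dppa4 runs from 51.5 to 109 RPM with the squares on top, and Dppa2 runs from 21.2 to 32.8 RPM with DMSO replicates 1 and 3 on top.

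The first comparison asked whether 10 µM STM2457 changed these genes relative to DMSO. Dppa2 was lower by a log2 difference of -0.31 (SE 0.229), a fold of 0.806 on the log2(RPM + 1) scale, with an adjusted p of 0.808 in limma. For Dppa4 the log2 difference was -0.34 (SE 0.246), a fold of 0.788, also with an adjusted p of 0.808 in limma. Neither difference was larger than the spread between libraries. Across all genes tested, limma called 0 of 13634 at 10 µM (0.0%), with 213 at an unadjusted p under 0.05, edgeR called 0 with 221, and DESeq2 called 1. The median log2 difference over all tested genes was 0.0907.

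DMSO and 10 µM libraries with the same replicate number came from the same batch of cells, and the pairs do not give the same picture for the 2 genes. In pair 1, Dppa2 at 10 µM was 0.700 times its DMSO level (counting interval 0.623 to 0.786), and in pair 2 it was 1.07 times (0.955 to 1.21). For Dppa4 the ratios were 0.907 (0.846 to 0.972) and 0.885 (0.821 to 0.954). Dppa4 was thus below DMSO in both pairs and Dppa2 in 1 of 2. With the replicate number as a block, a fit that leaves out the unpaired DMSO replicate 3, the log2 differences were -0.20 for Dppa2 (SE 0.120) and -0.16 for Dppa4 (SE 0.0854), with adjusted p of 0.355 and 0.287 in limma. That fit called 1022 of 13656 genes (7.48%), 567 higher and 455 lower at 10 µM, and neither Dppa2 nor Dppa4 was among them. Its SEs and p-values rest on a spread pooled over genes of like level, not on each gene's own pairs.

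The second comparison asked whether the level followed dose over all 7 libraries. The slope of Dppa2 per 10 µM was -0.10 on the log2 scale (SE 0.0881, adjusted p 0.567 in limma), and that of Dppa4 was 0.0946 (SE 0.120, adjusted p 0.680 in limma). Leaving out 1 library at a time moved these slopes between -0.20 and -0.0533 for Dppa2 and between 0.0172, without the 20 µM library, and 0.18, without DMSO replicate 3, for Dppa4. Limma called 0 of 13599 genes with dose (0.0%), with 1174 at an unadjusted p under 0.05, edgeR called 0 with 1244, and DESeq2 called 129. With the library set as a term, the Dppa4 slope turned to -0.0804 (SE 0.0740, adjusted p 0.837 in limma) and the Dppa2 slope was -0.18 (SE 0.0781, adjusted p 0.458 in limma). That fit called 27 of 13599 genes (0.199%), and neither Dppa2 nor Dppa4. Without DMSO replicate 3, the fit with no set term called 2479 of 13630 genes, again without Dppa2 or Dppa4. Run without the filter, as for the low members, these fits called 0 of 19594 and 0 of 19475 genes.

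Within set 2, where each treatment has 1 library and no separate test was run, Dppa2 at 20 µM was 0.659 times DMSO replicate 3 (counting interval 0.561 to 0.772), and at 30 µM it was 0.719 times (0.642 to 0.805). Dppa4 at 20 µM was 1.13 times DMSO replicate 3 (1.04 to 1.21), and at 30 µM it was 0.829 times (0.779 to 0.883). At 20 µM, the shallowest library, Dppa2 lay below DMSO replicate 3 and Dppa4 above it, and at 30 µM both lay below it. These intervals compare libraries and not treatments.

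**Figure D3:**
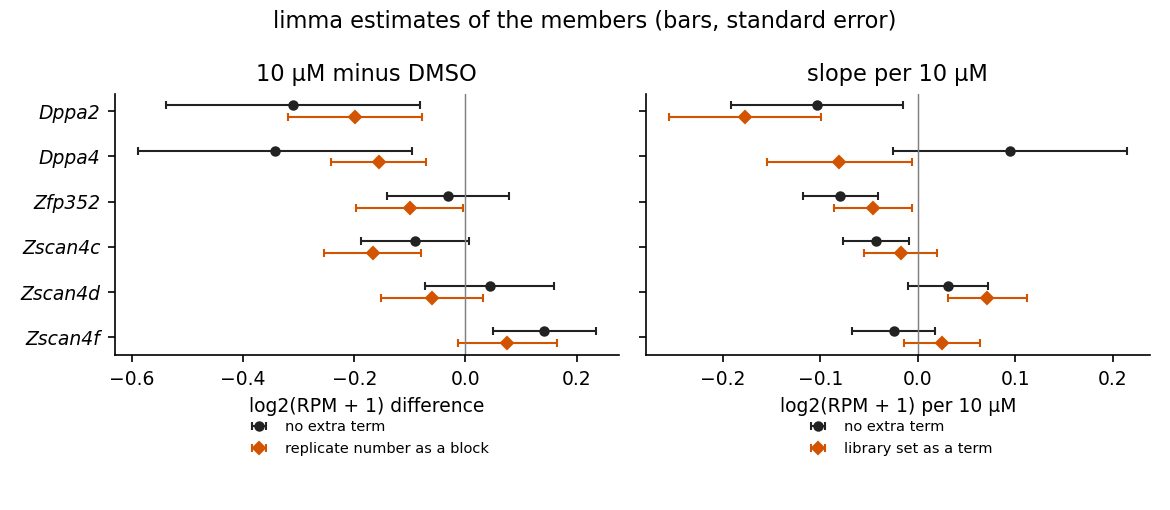
Log2 difference at 10 µM (left) and log2 slope per 10 µM (right) of 6 members from limma on log2(RPM + 1), with standard errors as bars; black points have no extra term, and orange points have the replicate number as a block (left) or the library set as a term (right). No estimate passed the threshold, and the Dppa4 slope moves from 0.0946 to -0.0804 when the set is added. The scale shrinks the estimates and bars of Zfp352 and the Zscan4 genes, which are low.

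As Dppa2 and Dppa4 proteins act as a pair, the RNA levels of their genes per kb were set against each other. The ratio is of chromatin-bound RNA over the counted spans, introns included, and not of protein. Its size depends on those spans and on reads lost to shared sequence, which were not measured. Dppa4 was 2.13, 2.33 and 2.59 times Dppa2 per kb in DMSO replicates 1, 2 and 3. It was 2.76 and 1.92 times Dppa2 in the 10 µM libraries, 4.43 times at 20 µM and 2.99 times at 30 µM. The 10 µM values lay on both sides of the DMSO range, and the 20 µM and 30 µM values lay above it. By library set, the ratios were 1.92 to 2.76 in set 1 and 2.59 to 4.43 in set 2, which holds both of these doses and DMSO replicate 3. Pearson's r of Dppa2 with Dppa4 was 0.29 over the 7 libraries, which share depth and set differences. The genes whose log2 levels most resembled Dppa4 over these 7 libraries were Gspt1 (r = 0.993), Msn (r = 0.990) and Chga (r = 0.987), and 43 of 13598 genes had an r of at least 0.95. For Dppa2 they were Hcfc1 (r = 0.971), Gm7854 (r = 0.958) and Ptpro (r = 0.946), and 2 genes had an r of at least 0.95.

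The remaining members were close to the limit of detection in each library. Zscan4c, the copy most associated with mES cells, lies at chr7:11005745-11010547 on the plus strand and had 5, 9 and 2 read pairs in DMSO replicates 1, 2 and 3, 5 and 2 in the 10 µM libraries, 1 at 20 µM and 3 at 30 µM, or 0.0852 to 0.321 RPM. Zscan4d, the copy most associated with the 2-cell embryo, lies at chr7:11161643-11166148 on the minus strand and had 5, 10 and 1 read pairs in DMSO, 7 and 5 in the 10 µM libraries, 3 at 20 µM and 6 at 30 µM, or 0.0466 to 0.357 RPM. Zscan4f, at chr7:11397915-11402318 on the plus strand, had 4, 6 and 1 read pairs in DMSO, 5 and 8 in the 10 µM libraries, 2 at 20 µM and 1 at 30 µM, or 0.0428 to 0.341 RPM. For each of the 3 genes the DMSO and 10 µM groups overlapped, and DMSO replicates 1 and 2 were above DMSO replicate 3. The 20 and 30 µM libraries lay within the DMSO range for Zscan4c and Zscan4d, and for Zscan4f the 20 µM library lay just above it and the 30 µM library just below.

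Because reads cannot always be given to 1 copy, the 3 genes were also summed, still without the pairs left out as shared. They had 14, 25 and 4 read pairs in DMSO replicates 1, 2 and 3 (0.669, 0.892 and 0.186 RPM), 17 and 15 at 10 µM (0.670 and 0.639 RPM), 6 at 20 µM (0.645 RPM) and 10 at 30 µM (0.428 RPM). The 4 inhibitor libraries all lay within the DMSO range. The sum over all 6 Zscan4 genes in the table gave 29, 44 and 14 read pairs in DMSO, 31 and 30 in the 10 µM libraries, 11 at 20 µM and 12 at 30 µM. In RPM this sum was 1.22 to 1.57 in set 1 and 0.514 to 1.18 in set 2. Read as a sum, the family was thus lower in set 2 than in set 1, with the 20 µM interval (0.590 to 2.12 RPM) wide enough to span both. The share of all genes lower in set 2 was not counted.

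Zfp352 lies at chr4:90218820-90225687 on the plus strand. It had 8, 10 and 4 read pairs in DMSO (0.383, 0.357 and 0.186 RPM), 10 and 4 at 10 µM (0.394 and 0.170 RPM), 2 at 20 µM (0.215 RPM) and 2 at 30 µM (0.0856 RPM). The DMSO and 10 µM groups overlapped and the 20 µM library lay among them, while the 30 µM library, with 2 read pairs, lay below all others. Its slope with dose was -0.0795 per 10 µM (SE 0.0382, adjusted p 0.564 in limma without a filter). With the set as a term it was -0.0458 (SE 0.0401, adjusted p 0.868 in limma). The log2(RPM + 1) scale shrinks slopes at such low levels, and edgeR gave -0.449 without the set (adjusted p 0.565).

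Tcstv1 lies at chr13:119893387-119894785 on the minus strand and was read from 1 read pair in all, in 10 µM replicate 2. Tcstv3, at chr13:120316862-120318261 on the plus strand, was read from 3 read pairs, all in DMSO replicate 2. With 3 counts as the limit for a count of 0, the level could be up to 0.107 RPM in DMSO replicate 2, the deepest library, and up to 0.323 RPM at 20 µM, so no difference was detectable at this depth and no fold is given.

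**Figure D4:**
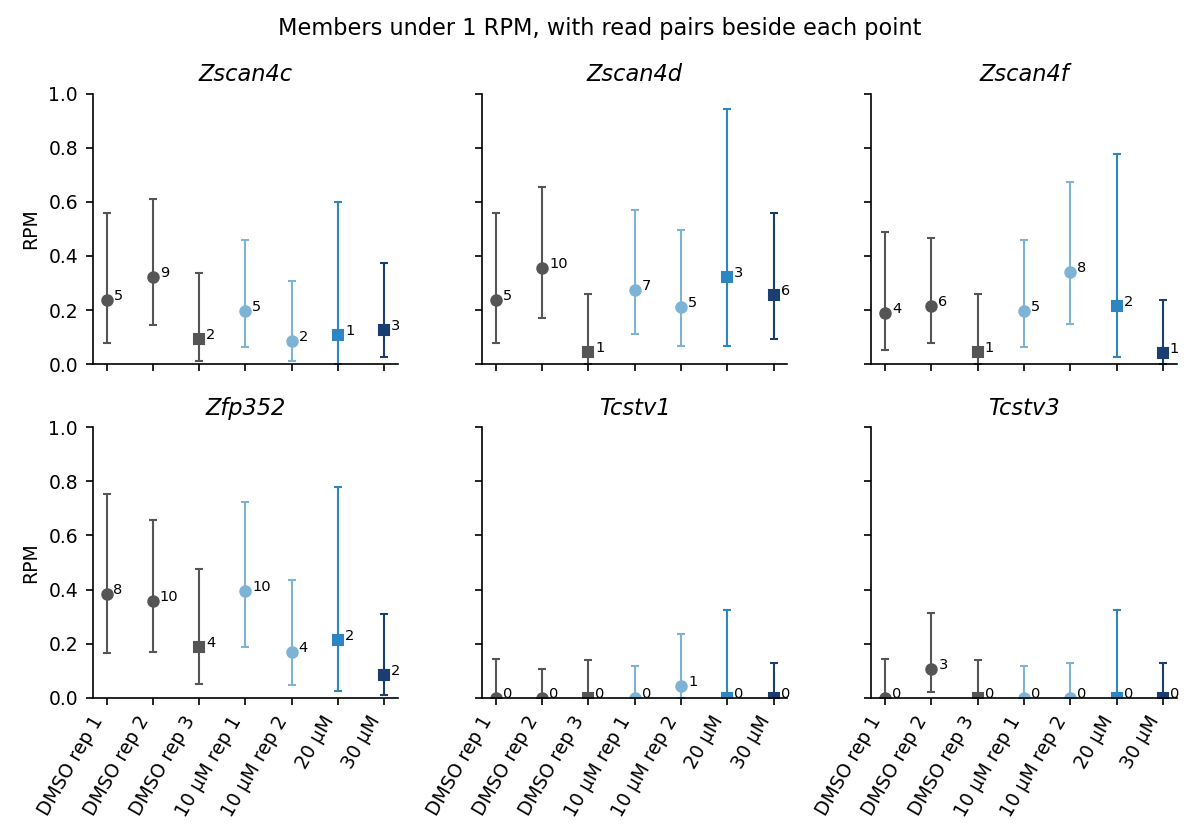
RPM of the 6 members under 1 RPM in each of the 7 libraries, with the number of read pairs beside each point and 95% Poisson intervals as bars, or the limit of 3 counts where the count is 0; colours mark dose (grey DMSO, blues 10 to 30 µM) and shapes mark set (circles 1, squares 2). Counts run from 0 to 10 read pairs, and within each gene the intervals of the 7 libraries overlap.

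Without a filter, the log2 differences of these members at 10 µM were -0.0911 for Zscan4c, 0.0434 for Zscan4d, 0.14 for Zscan4f and -0.0314 for Zfp352, with adjusted p between 0.854 and 0.929 in limma. On the recovered read pairs, edgeR gave log2 differences of -0.69, 0.0827, 0.70 and -0.20, with adjusted p between 0.844 and 0.982. For dose, DESeq2 gave these 4 genes no adjusted p. The adjusted p of these 4 genes ran from 0.306 to 0.999 for 10 µM and from 0.0914 to 0.972 for dose over the alternatives tried, the lowest being that of Zfp352 with dose without DMSO replicate 3.

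Other genes of the state were mostly as low as these. Of 52 further 2C genes listed, 36 were in the table and 2 reached a mean of 1 RPM over the 7 libraries. These were Nelfa, a subunit of the negative elongation factor complex that is also made outside the 2C-like state, and Sp110, a nuclear body protein. None of the 3 that could be tested at 10 µM or the 2 that could be tested with dose was called by limma, edgeR or DESeq2, and 0 had an unadjusted p under 0.05. Sp110 received no adjusted p from DESeq2 for dose, so it could not be called there. Nelfa was at 42.6, 42.3 and 65.4 RPM in DMSO, 42.1 and 39.4 RPM at 10 µM, 54.5 RPM at 20 µM and 59.7 RPM at 30 µM, so that, like Dppa4, it was higher in every library of set 2 than in any of set 1. Sp110 was at 1.91, 2.89 and 0.745 RPM in DMSO and 2.80 and 3.28 RPM at 10 µM. It was at 0.430 RPM at 20 µM and 0.984 RPM at 30 µM, and was lower in every library of set 2. How many of all genes divide by set in either direction was not counted, so these divisions are not read as a trait of 2C genes. Gm2016 and Arg2, the next by level, had means of 0.890 and 0.884 RPM. Dux, the factor that Dppa2 and Dppa4 act on, had 6 read pairs in all.

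Summed, the 34 other 2C genes under the filter gave 144, 223 and 109 read pairs in DMSO (6.88, 7.96 and 5.08 RPM), 188 and 240 at 10 µM (7.41 and 10.2 RPM), 54 at 20 µM (5.81 RPM) and 110 at 30 µM (4.71 RPM). The 6 members under the filter summed to 22, 38 and 8 read pairs in DMSO (1.05, 1.36 and 0.373 RPM), 27 and 20 at 10 µM (1.06 and 0.852 RPM), 8 at 20 µM (0.860 RPM) and 12 at 30 µM (0.514 RPM). Both sums included DMSO replicate 3 among the lowest libraries. Of the 10 µM libraries, replicate 2 had the highest sum of the other 2C genes of any library, whereas its sum of members lay within the DMSO range. The library sets move with these sums, and their part in any difference with dose was not tested for the sums.

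**Figure D5:**
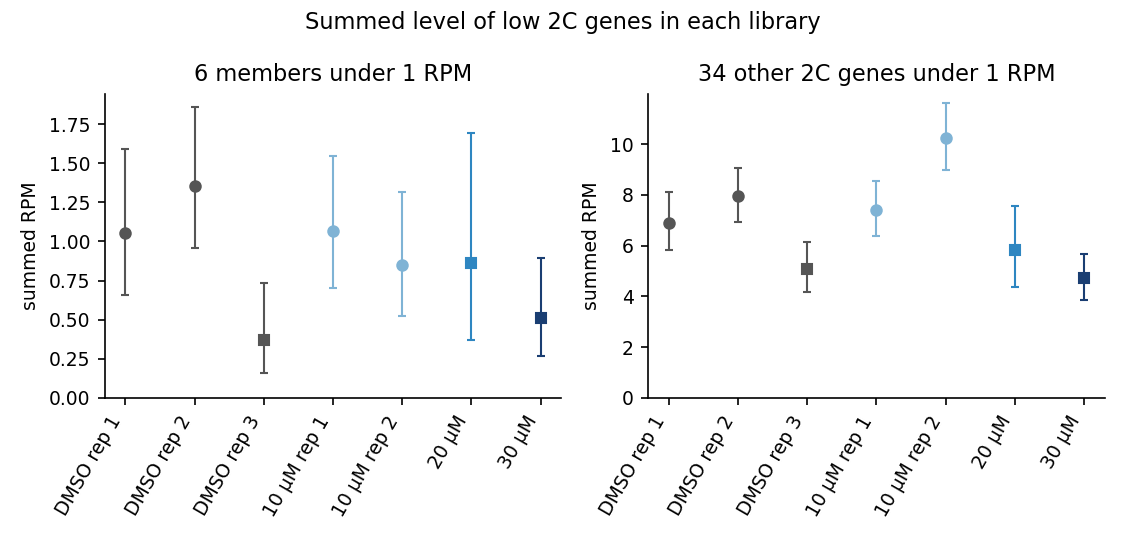
Summed RPM of the 6 members under 1 RPM (left) and of 34 other 2C genes under 1 RPM (right) in each of the 7 libraries, with 95% Poisson intervals as bars; grey is DMSO, blues darken from 10 to 30 µM, circles are set 1 and squares set 2. The members sum to 0.373 to 1.36 RPM and the other genes to 4.71 to 10.2 RPM.

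Genes known to hold the 2C-like state in check were read well. All 22 listed repressors passed the filter. The 4 with the highest levels were Rif1, a telomere and replication timing factor (mean 1303 RPM), Ncl, the nucleolar protein nucleolin (899 RPM), Mga, a subunit of a Polycomb complex (626 RPM), and Usp7, a deubiquitinase (537 RPM). Limma, edgeR and DESeq2 each called 0 of 22 at 10 µM, where 0 had an unadjusted p under 0.05, and 0 of 22 with dose, where 3 had. In limma, 13 of 22 were above 0 at 10 µM, with a median log2 difference of 0.0323, against 0.0907 over all genes tested. With the replicate block, Rif1 (log2 difference 0.22, adjusted p 0.0173 in limma) and Mga (0.24, adjusted p 0.00480) rose at 10 µM and Atf7ip, a partner of the histone methyltransferase SETDB1, fell by 0.32 on the log2 scale (adjusted p 4.23e-05), names that were chosen after their values were seen. These are 3 of 22, beside 7.48% of all genes in that fit. Their p-values rest on the spread pooled over genes, not on each gene's own pairs. Ncl was at 2949 RPM at 20 µM and at 328 to 1095 RPM in the other libraries.

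Of 8 naive pluripotency genes, 7 were tested, and limma, edgeR and DESeq2 called 0 at 10 µM, with 0 at an unadjusted p under 0.05, and 0 with dose, with 1. Esrrb, Zfp42, Tdgf1 and Nanog had the highest levels, with means of 714, 572, 148 and 81.5 RPM. Their list summed to 1601 to 1729 RPM in DMSO, 1591 and 1762 RPM at 10 µM, 1366 RPM at 20 µM and 1576 RPM at 30 µM. Of the 3 fibroblast markers tested, 0 were called in either comparison by these tools, with 0 at an unadjusted p under 0.05 at 10 µM and 1 with dose. Thy1 received no adjusted p from DESeq2 for dose. With the replicate block Fn1 fell by 0.26 on the log2 scale at 10 µM (adjusted p 0.00152 in limma), again with the pooled spread.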

How the data were processed

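ChrRNA-seq was analysed for 7 libraries. As the study's methods state, rRNA was filtered out by the authors with Bowtie2 before STAR alignment to N-masked mm10, only uniquely aligned pairs entered featureCounts, which counted stranded pairs over each gene's full span, introns included, and edgeR scaled the counts, which were deposited as RPM. The values sum to the same total over the genes of the table in each library, so that the scaling was to read pairs on genes. A further column the authors deposited, gene length in bp, was used for RPM per kb. The deposited allelic fractions of X-linked genes hold no member and were not used. Starts in the table are 1 lower than the RefSeq starts and are printed from 1.

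Whole read pairs were recovered from the RPM steps, within 1e-04 RPM for 100% of values above 0. Poisson intervals (95%) and the floor of 3 counts cover counting error only. The test was limma 3.58.1 with the eBayes trend on log2(RPM + 1), where the differences of low genes shrink, for genes whose mean reached 1 RPM. Benjamini-Hochberg adjustment ran over all genes tested, with a threshold of 0.05. Members under the filter were read from the same fit without it. The recovered read pairs were also fitted in R 4.3.3 by the quasi-likelihood test of edgeR 4.0.16 and by DESeq2 1.42.0. Further alternatives changed the pseudocount (0.1), the filter (5 RPM or none) or the scaling (TMM factors, or sums without the genes high at 20 µM), added a replicate block or the library set, or left out each library. The fits were first tested on simulated counts. Python 3.11.15 with pandas 2.3.3, scipy 1.17.1 and numpy 2.4.6 served for the rest.

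Groups came from the labels. Replicate numbers 1 and 2 pair DMSO with 10 µM, since the study's methods have each replicate's wells come from 1 batch of cells, and replicate deviations correlated at 0.621 over 13599 genes. All libraries come from 1 clone, so p-values measure the spread between cultures of it. In the limma fit with the replicate block, that spread was pooled over genes of like level, and a gene's own pairs did not set it.

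The members and lists were chosen with earlier results of these data known. Named are all members, the 4 genes of each list with the highest mean RPM, those that passed the threshold, and the 3 genes most like each member with a mean of at least 1 RPM. Marker and sequence facts outside that rule, Dux, and genes called with the block were named after their values were seen. Shared sequence was computed on 81-base words of the longest protein-coding GENCODE vM21 transcript of each gene, which for Dppa2 spans 15816 bp against 9241 bp counted.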

Additional observations from a re-analysis of the deposited data

How the results depend on the processing

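Of 164 repeats of the 10 µM differences and dose slopes of 6 members under an alternative, 153 were counted as keeping their direction and side of the threshold and 11 turned. The 153 include the DESeq2 dose slopes of Zscan4c, Zscan4d, Zscan4f and Zfp352, which kept their direction but received no adjusted p. No member was called under any alternative. The main fits called 0 of 13634 genes at 10 µM and 0 of 13599 with dose. TMM factors, the pseudocount of 0.1 and the filter of 5 RPM also called 0 genes. Staying on that side of the threshold therefore says little about the members. The count of genes changed at 10 µM went from 0 to 1022 with the replicate block (831 with edgeR and the block), and to 1 with DESeq2, and ran from 0 to 1 when each library was left out. The count changed with dose went from 0 to 129 with DESeq2, 27 with the library set as a term and 73 with edgeR and that term, and ran from 0 to 2479 when each library was left out, the highest without DMSO replicate 3. The edgeR fits with the block or the set were added after seeing the data. The cause of these changes was not tested.

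No estimate was called, whether or not its direction turned. The 10 µM difference of Zscan4d, 0.0434, became -0.0596 with the replicate block and -0.33 with edgeR and the block, and ran from -0.0596 to 0.13 when each library was left out, and that of Zfp352 ran from -0.16 to 0.0948. The dose slope of Zscan4d ran from -0.00567 to 0.0613 and that of Zscan4f from -0.0570 to 0.0611. With the set as a term the slope became 0.0247 for Zscan4f (0.18 with edgeR) and -0.0804 for Dppa4 (-0.0849 with edgeR). Leaving out each library moved the 10 µM difference of Dppa2 between -0.48 and -0.20 and that of Dppa4 between -0.53 and -0.16. The dose slope of Dppa2 ran from -0.20 to -0.0533, the largest fall without the 30 µM library and the smallest without DMSO replicate 3, and that of Dppa4 from 0.0172 without the 20 µM library to 0.18 without DMSO replicate 3. Of the genes on the lists, the replicate block brought the calls of Rif1, Mga, Atf7ip and Fn1, and of no member. With counts of 10 or fewer per library, 6 of the 8 genes could not show differences of the size seen in Dppa2 or Dppa4, and libraries at 20 and 30 µM have no replicate.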
